A study of Homo sapiens with 4 samples.

Results

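ASH1L peaks at promoters were the peaks of the DMSO and AS-99 ASH1L lists, on chromosomes 1 to 22 and X, that overlapped the 1 kb on either side of the gene start of a protein-coding gene. There were 768 such peaks among 3073 in the DMSO list and 275 among 1812 in the AS-99 list, together 1043 of the 6948 peaks listed in the series. They lay at 936 and 315 of the 20098 protein-coding genes, which is 4.66% of genes with DMSO and 1.57% with AS-99. The data came from CUT&RUN, in which an antibody directs a nuclease to its target and the released DNA fragments are sequenced, in MV4;11, a human leukemia cell line with a rearranged MLL1 gene. Cells were kept for 4 days in 5 µM AS-99, a small molecule inhibitor of ASH1L, or in 0.25% DMSO as vehicle, and were profiled for ASH1L and for H3K36me2, histone H3 dimethylated at lysine 36. With 1 library in each of the 4 groups, differences could not be checked against replicates, and the 95% intervals reflect counting error or variation among peaks alone. The dose is that of the labels, and the one stated in the methods is a little above it. They also speak of replicate treatments whose mapped files were merged, so a library could stand for 1 culture or for a pool.

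ASH1L is a histone methyltransferase whose SET domain adds methyl groups to lysine 36 of histone H3. Many promoters of widely expressed human genes lie in CpG islands, stretches in which the CpG dinucleotide has been kept while it is depleted over most of the genome. A bidirectional promoter is a short stretch between the starts of a gene pair that are transcribed away from each other, and most lie in CpG islands.

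The ASH1L libraries held 19635489 (DMSO) and 15381860 (AS-99) fragments after filtering. The height of a peak is its pileup, the number of fragments covering its summit. Promoter peaks were low: the pileup ran from 10 to 40 with a median of 17 with DMSO, and from 9 to 30 with a median of 15 with AS-99. The median fold enrichment over background was 4.64 and 4.84. ASH1L peaks away from promoters had median pileups of 16 and 15, but reached 3598 and 3316. Regions with a peak in all 4 lists held 1 promoter peak of each ASH1L list, at SIGLEC10, and 49 (DMSO) and 48 (AS-99) of the other ASH1L peaks. No expression was measured here, so the identity of the cells could not be checked on their markers.

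The sequences of 6 promoter peaks show the kinds of promoter in the lists, with CpG dinucleotides in capitals. Each is a stretch inside the peak, free of annotated exons, on the plus strand of GRCh37. The first 3 come from peaks at divergent gene pairs and were chosen by rule. These 3 stretches lie downstream of the nearer start and not between the starts. Those of BBIP1/SHOC2 and TMEM53/ARMH1 do not hold the summit. WDR55, CCL3 and SIRPB2 were added after their values had been seen, to set a promoter dense in CpG beside promoters with few.
BBIP1/SHOC2: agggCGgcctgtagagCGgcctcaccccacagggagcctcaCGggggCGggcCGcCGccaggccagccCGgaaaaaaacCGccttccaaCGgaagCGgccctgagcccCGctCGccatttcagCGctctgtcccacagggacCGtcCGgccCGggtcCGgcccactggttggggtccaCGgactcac
TMEM53/ARMH1: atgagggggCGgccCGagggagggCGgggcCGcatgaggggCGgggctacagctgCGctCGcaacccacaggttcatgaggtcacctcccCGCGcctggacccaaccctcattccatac
APBA3/MRPL54: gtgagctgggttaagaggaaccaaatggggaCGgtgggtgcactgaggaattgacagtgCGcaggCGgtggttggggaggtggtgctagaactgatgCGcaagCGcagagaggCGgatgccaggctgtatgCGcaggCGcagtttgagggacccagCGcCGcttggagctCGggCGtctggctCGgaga
WDR55: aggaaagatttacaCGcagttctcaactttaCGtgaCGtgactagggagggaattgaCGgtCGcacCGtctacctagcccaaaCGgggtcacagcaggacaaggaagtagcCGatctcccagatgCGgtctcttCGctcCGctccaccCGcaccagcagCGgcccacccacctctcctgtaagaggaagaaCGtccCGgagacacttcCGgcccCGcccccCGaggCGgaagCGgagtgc
CCL3: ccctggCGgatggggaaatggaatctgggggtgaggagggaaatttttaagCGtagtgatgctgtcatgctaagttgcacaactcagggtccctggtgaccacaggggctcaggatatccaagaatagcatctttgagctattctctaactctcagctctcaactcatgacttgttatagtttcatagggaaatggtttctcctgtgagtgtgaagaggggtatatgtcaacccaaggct
SIRPB2: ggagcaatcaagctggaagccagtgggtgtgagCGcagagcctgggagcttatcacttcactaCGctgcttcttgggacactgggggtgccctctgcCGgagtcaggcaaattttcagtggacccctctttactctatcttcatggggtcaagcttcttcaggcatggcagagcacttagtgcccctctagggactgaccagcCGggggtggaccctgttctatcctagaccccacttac
The BBIP1/SHOC2 stretch, chr10:112678416-112678602, held 18 CpG in 187 bp. The TMEM53/ARMH1 stretch, chr1:45139884-45140002, held 9 in 119 bp, and the APBA3/MRPL54 stretch, chr19:3762817-3763005, held 13 in 189 bp. WDR55, at chr5:140044181-140044420, held 20 in 240 bp, with an observed/expected CpG ratio of 0.898. The stretches of the same length at CCL3 (chr17:34417524-34417763) and SIRPB2 (chr20:1471681-1471920) held 2 and 4 CpG, with ratios of 0.154 and 0.208. The GC box letters GGGCGG, on either strand, were present at BBIP1/SHOC2, TMEM53/ARMH1 and WDR55, and in none of the other 3 stretches.

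The strongest DMSO promoter peaks, by the authors' −log10 p, stood at genes of many roles. DBP, a circadian transcription factor of the PAR bZIP family, had the highest, with a pileup of 40 (exact Poisson 95% interval 28.6 to 54.5). The summit lay 828 bp before the DBP start and so outside DBP, in an intron annotated to another gene (chr19:49140683-49141594, hg19 as for all positions). MANBA, which encodes the lysosomal enzyme beta-mannosidase, had a pileup of 34 with DMSO and 23 with AS-99 (DMSO peak chr4:103681697-103682176, summit in an exon). TRIM41, a ubiquitin ligase gene, had 33 and 20 (chr5:180650168-180650569, exon). PGGT1B, the beta subunit of a protein prenyltransferase, had 29 and 25 (chr5:114598241-114598604, exon). At BBIP1 and SHOC2, which encode a BBSome protein and a scaffold of RAS signalling, a shared peak had 29 and 17. These pairs of pileups are not scaled to depth.

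CIC, a transcriptional repressor gene, ALAD, an enzyme gene of heme synthesis, and the neighbours DTX3L and PARP9, which encode a ubiquitin ligase and its ADP-ribosyltransferase partner, had DMSO pileups of 38, 30 and 29. Their summits lay in an intron (CIC, chr19:42772611-42773245), outside protein-coding genes (ALAD, chr9:116163414-116163802) and in an exon (DTX3L/PARP9, chr3:122283210-122283509). ATF7IP, which encodes a partner of the H3K9 methyltransferase SETDB1, had 25. No AS-99 ASH1L peak was listed within 1 kb of the DBP, CIC, ALAD, DTX3L/PARP9 or ATF7IP peaks. A peak absent from a list fell under the caller's threshold, and its pileup there is not known.

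Among the strongest AS-99 promoter peaks, SIGLEC10, an inhibitory receptor gene of leukocytes, had a pileup of 30 with AS-99 and 31 with DMSO (AS-99 peak chr19:51920568-51921125, exon). The RAD9B/VPS29 pair, a checkpoint clamp gene and a retromer subunit gene, had 27 in both lists. LILRA5, a leukocyte immunoglobulin-like receptor gene, had 29 with AS-99 and 16 with DMSO (chr19:54823855-54824450, intron). ASH2L, a core subunit of the MLL histone H3 lysine 4 methyltransferases, had a pileup of 30 (20.2 to 42.8) with AS-99 and no DMSO peak within 1 kb. That peak, chr8:37962351-37962771, had its summit 451 bp before the ASH2L start, outside protein-coding genes. ZNF460 and NUDT4B also had AS-99 peaks, with pileups of 27 and 20, and no DMSO peak within 1 kb. NUDT4B is a near-identical copy of NUDT4, so the placing of its fragments is uncertain.

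Most summits lay downstream of gene starts. The start is the outermost end of the gene in the annotation, and starts further inside the gene were not considered. The median position was 141 bp (DMSO) and 186 bp (AS-99) downstream of the nearest start, and 65.1% (61.6 to 68.5, exact Clopper-Pearson interval) and 68.4% (62.5 to 73.8) of summits were downstream. Fewer AS-99 summits were close to a start: 36.7% lay within 250 bp against 49.5% with DMSO, a difference of 12.8 points (Newcombe interval 5.93 to 19.3). At divergent pairs, 63 of 77 DMSO summits and 14 of 15 AS-99 summits lay downstream of the nearer start, inside 1 of the transcribed genes and not between the starts. Any summit outside the gap between divergent starts is downstream of 1 of them, so a high share there is partly built in. At peaks with no divergent start of any gene, 66.8% (DMSO) and 68.4% (AS-99) of summits lay downstream. By annotation, 43.4% of DMSO summits lay in an exon of a protein-coding gene, 29.9% in an intron and 26.7% outside such genes, and the AS-99 shares were 43.6%, 30.5% and 25.8%. Peak intervals covered a gene start itself at 288 of the 768 DMSO peaks and 78 of the 275 AS-99 peaks.

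**Figure D1:**
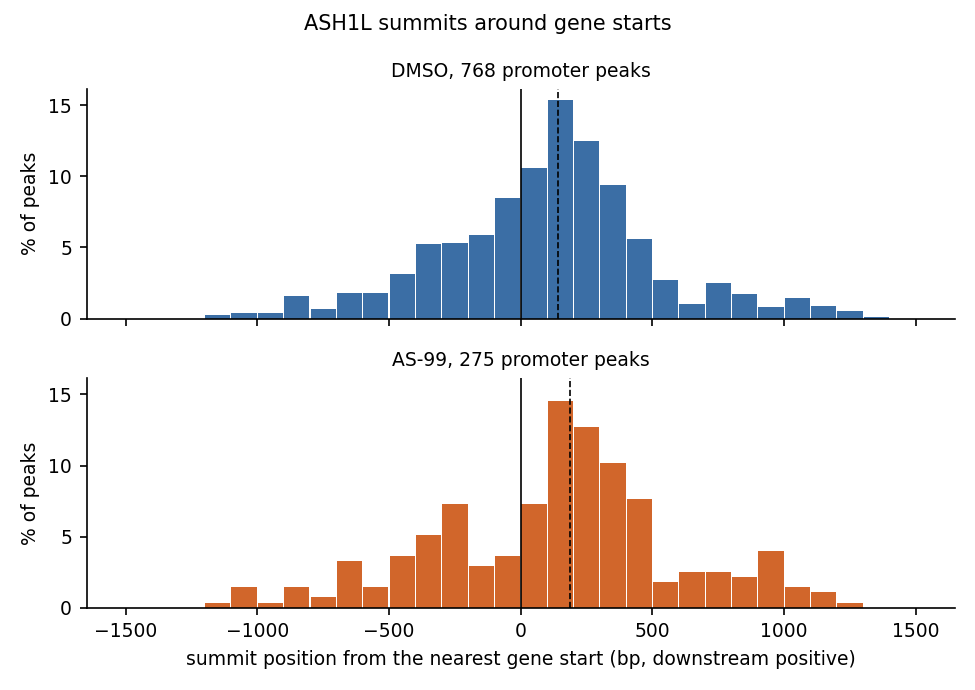
Share of promoter peaks (%) by the position of the summit from the nearest protein-coding gene start in bp, in bins of 100 bp, for the DMSO and AS-99 lists. Solid lines mark the start and dashed lines the medians, 141 and 186 bp downstream, and the bins just after the start are the fullest in both lists.

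At the 1 kb bound, the outermost members had an edge 989 bp (ARID5A, pileup 14) and 986 bp (NMI, 16) from a start with DMSO, and 983 bp (TTLL3, 13) and 978 bp (ZHX2, 23) with AS-99. Just outside were ZBTB43 at 1010 bp (11), C12orf57 at 1016 bp (19), KRI1 at 1001 bp (15) and MGST3 at 1002 bp (16).

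Genes with an ASH1L promoter peak had promoters richer in CpG than other genes. A promoter was called high CpG when a 500 bp window near the start had an observed/expected CpG ratio of at least 0.75 and a GC content of at least 55%, and low CpG when no window reached a ratio of 0.48. With DMSO, 79.4% of the 936 genes were high CpG, against 54.5% of genes without a peak, a difference of 24.8 points (22.04 to 27.4). With AS-99 the shares were 72.7% of 315 genes and 55.4%, a difference of 17.3 points (12.1 to 21.9). Some peaks touched 2 or more genes, so the genes are not independent. The intervals over genes, here and in the comparisons below, are therefore likely too narrow. Low CpG promoters made up 25.5% of all genes, 5.66% of the DMSO genes and 11.1% of the AS-99 genes. The AS-99 share of low CpG genes was 5.45 points above the DMSO share (2.00 to 9.61). The median CpG ratio over 500 bp on either side of the start was 0.758 for DMSO genes, 0.757 for AS-99 genes and 0.686 for all genes. The median GC content differed less, at 59.6%, 58.4% and 59.1%.

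The low CpG members with the strongest peaks included SIGLEC10 and SIRPB2, a signal-regulatory protein gene. CCL3, a chemokine gene, had a DMSO pileup of 27 and no AS-99 ASH1L peak. MYO1F, an unconventional myosin gene, had pileups of 22 with DMSO and 26 with AS-99, and CCRL2, a chemokine receptor-like gene, had 21 and 22. C20orf203, a gene of unknown function, had 22 and 24.

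Bidirectional starts, as defined here, were more frequent among the DMSO genes than among genes without a peak. Among the AS-99 genes no such difference was detected. A gene was called bidirectional when another protein-coding gene started on the opposite strand within 1 kb upstream, with transcription away from it. Pairs whose starts overlap, with the opposite gene starting inside the first, were not counted, and DTX3L/PARP9 was not called bidirectional. Peaks touching 2 genes of any orientation were 154 of 768 (20.1%) with DMSO and 40 of 275 (14.55%) with AS-99. Whether the contrast holds with overlapping pairs counted was not tested. With DMSO, 158 of 936 genes (16.9%) were bidirectional, against 8.06% of genes without a peak, a difference of 8.82 points (6.52 to 11.4). With AS-99, 28 of 315 (8.89%) were, against 8.47%, a difference of 0.422 points (−2.27 to 4.10). The DMSO share was 7.99 points above the AS-99 share (3.69 to 11.7). A peak often touched both genes of a pair, so the genes are not independent and these intervals are too narrow. Counted by peak, 77 of 768 DMSO peaks (10.0%) and 15 of 275 AS-99 peaks (5.45%) lay at a bidirectional start, a difference of 4.57 points (0.707 to 7.72).

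Bidirectional promoters are mostly high CpG, and the DMSO difference was smaller within that class. Among high CpG genes, 19.4% of those with a DMSO peak and 10.9% of those with an AS-99 peak were bidirectional, against 13.7% of all high CpG genes. The difference from high CpG genes without a peak was 6.05 points (3.29 to 9.12) with DMSO and −2.87 points (−6.35 to 1.87) with AS-99.

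**Figure D2:**
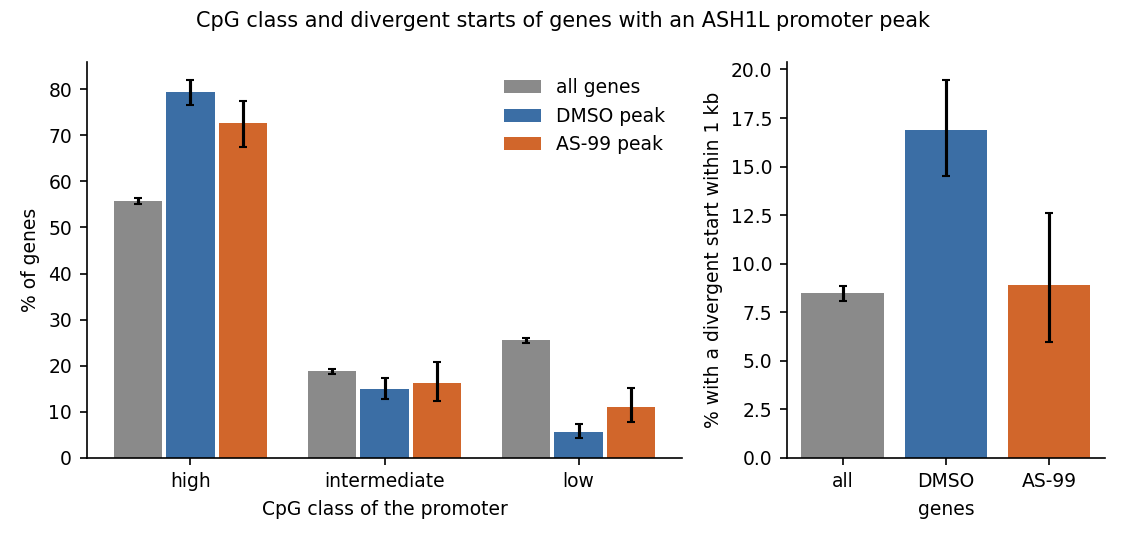
Share of genes (%) in each CpG class and share with a divergent protein-coding start within 1 kb, for all 20098 genes and for those with a DMSO or AS-99 ASH1L promoter peak. Bars are shares and lines exact 95% intervals, and the bidirectional share is 16.9% with DMSO beside 8.89% with AS-99 and 8.47% in all genes.

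The strongest bidirectional DMSO peaks after BBIP1/SHOC2 were at APBA3/MRPL54 (pileup 31), an adaptor gene and a mitochondrial ribosomal protein gene whose starts lie 990 bp apart, and at COG4/SF3B3 (27), a Golgi tethering gene and a splicing factor gene. CBX5/HNRNPA1, the genes of heterochromatin protein HP1 alpha and of an RNA-binding protein, had a pileup of 26, with starts 60 bp apart. LSM5/AVL9 had 21. The AS-99 list held a peak at APBA3/MRPL54 (24), and none that overlapped those at COG4/SF3B3, CBX5/HNRNPA1 or LSM5/AVL9. These 3 pairs and the next were chosen after their values had been seen, by −log10 p among bidirectional peaks. BLVRB/SPTBN4, a biliverdin reductase gene beside a spectrin gene, held a bidirectional peak of pileup 24 with AS-99. A DMSO peak of pileup 22, at BLVRB, overlapped it.

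Promoter peaks were 0.358 times as many in the AS-99 list as in the DMSO list (0.311 to 0.411), and the other ASH1L peaks 0.667 times as many (0.625 to 0.712). The promoter share of ASH1L peaks was 24.99% with DMSO and 15.2% with AS-99, a difference of −9.82 points (−12.04 to −7.53). With each DMSO peak thinned to the fragment number of the AS-99 library, the DMSO list would hold 654 promoter peaks and the ratio becomes 0.421 (0.364 to 0.485). The other ASH1L peaks then gave 0.788 (0.736 to 0.843).

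The ratio fell with the GC content of the 300 bp around the summit, at promoters and elsewhere alike. At promoters it was 0.846 (0.457 to 1.55) for GC under 45%, 0.568 (0.399 to 0.802) for 45 to 55%, 0.356 (0.282 to 0.445) for 55 to 65% and 0.267 (0.210 to 0.336) for 65% or more. For the other ASH1L peaks the same classes gave 1.04, 0.607, 0.442 and 0.288. The median GC content of promoter peaks was 63.7% with DMSO and 61.3% with AS-99, against 50.3% and 46.0% for the others. Pooled within GC classes, the promoter ratio was 0.862 times that of the other peaks (Mantel-Haenszel 95% interval 0.724 to 1.03), whereas without classes it was 0.537 times. At the ratios of the other peaks in each class, 317 AS-99 promoter peaks would have been listed, and 275 were. The GC classes were chosen after the data were seen. The fragment size in the file headers was 250 bp with DMSO and 269 bp with AS-99, and its part in the GC pattern was not tested.

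Between kinds of promoter, the ratio was 0.308 (0.265 to 0.358) for high CpG genes, 0.364 (0.259 to 0.505) for intermediate ones and 0.660 (0.418 to 1.03) for low CpG ones. Bidirectional peaks gave 0.195 (0.104 to 0.342) and the other promoter peaks 0.376 (0.325 to 0.435). At the AS-99 depth these became 0.237 (0.126 to 0.423) and 0.440 (0.379 to 0.511). Within GC classes the bidirectional ratio was 0.482 times that of the other promoter peaks (0.271 to 0.857), and 0.518 times without classes. Bidirectional peaks had a median GC content of 61.0% with DMSO, against 64.0% for the other promoter peaks, and of 64.3% with AS-99, against 61.3%. The bidirectional AS-99 peaks number 15, and each GC class held at most 5 of them.

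**Figure D3:**
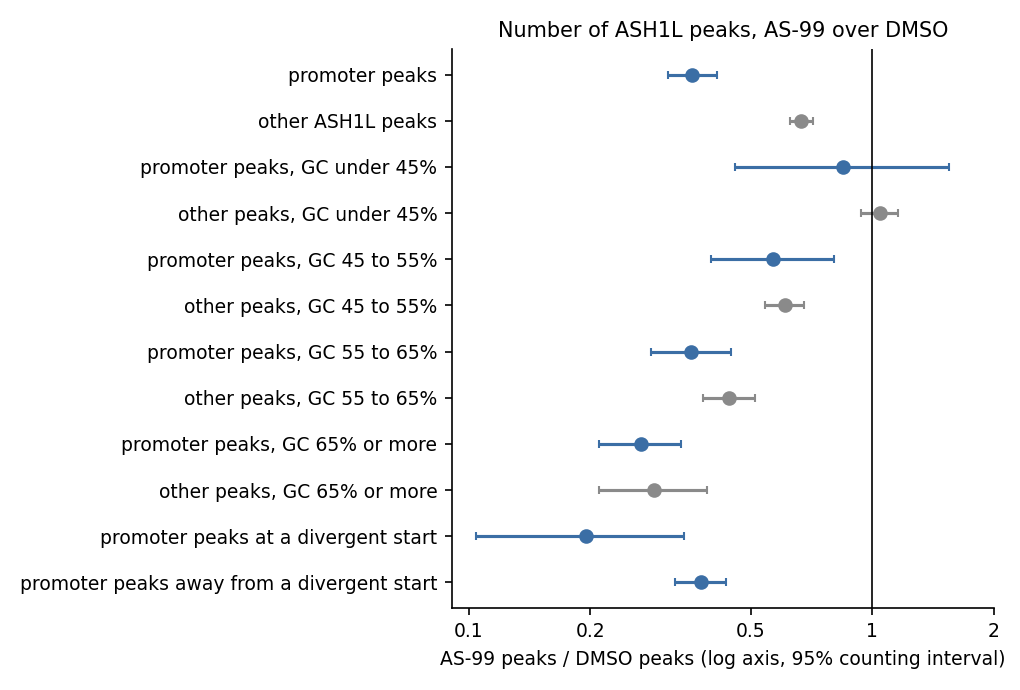
Number of AS-99 peaks over DMSO peaks (log axis) for promoter peaks in blue and other ASH1L peaks in grey, whole and by GC content around the summit, and for promoter peaks by bidirectional start. Points are ratios, lines 95% counting intervals, and the vertical line is 1, and both kinds of peak fall from near 1 under 45% GC to 0.267 and 0.288 at 65% or more.

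The AS-99 ASH1L list overlapped 75 of the 768 DMSO promoter peaks (9.77%), against 308 of 2305 other peaks (13.4%), a difference of −3.60 points (−5.99 to −0.937). Over all DMSO ASH1L peaks the share was 12.5%. Without the regions that hold a peak in all 4 lists, the difference was −1.88 points (−4.22 to 0.738). Retention was higher among taller peaks: 4.02% of promoter peaks with a pileup under 15 were overlapped, 7.10% at 15 to 19, 16.3% at 20 to 24 and 30.4% at 25 or more. From the AS-99 side, 74 of 275 promoter peaks (26.9%) were overlapped by a DMSO peak, against 21.1% of all AS-99 ASH1L peaks. Of the genes, 95 had a promoter peak in both lists, which is 10.1% of the DMSO genes and 30.2% of the AS-99 genes. Of these 95 genes, 7 were bidirectional and 70 were high CpG.

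At the 75 promoter peaks matched 1 to 1, the pileup scaled to 1000000 fragments was higher with AS-99 at 46 and lower at 29. The median log2 ratio of AS-99 over DMSO was 0.11 (−0.02 to 0.23), and at 308 other matched peaks it was 0.20 (0.13 to 0.24). Scaled by the summed pileup of each list instead, 64 of the 75 were higher with AS-99 and the median was 0.50 (0.37 to 0.62). That divisor sums over the listed peaks, 66938 with DMSO and 39987 with AS-99, so it falls when fewer peaks are listed. It shifts every pair by the same amount, so the larger number of higher pairs is no separate evidence of a rise. Peaks listed in both libraries had to pass the threshold in each, so the ratio leaves out peaks that fell below it. LILRA5 had the highest log2 ratio of the 75, 1.21, with scaled pileups of 0.815 (DMSO) and 1.89 (AS-99). SIRPB2 had the lowest, −0.60, with 1.58 and 1.04. MTIF2, a mitochondrial translation initiation factor gene, had 1.02 and 1.56, and RAC1, a small GTPase gene named after its values were seen, had 1.07 and 0.7801.

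**Figure D4:**
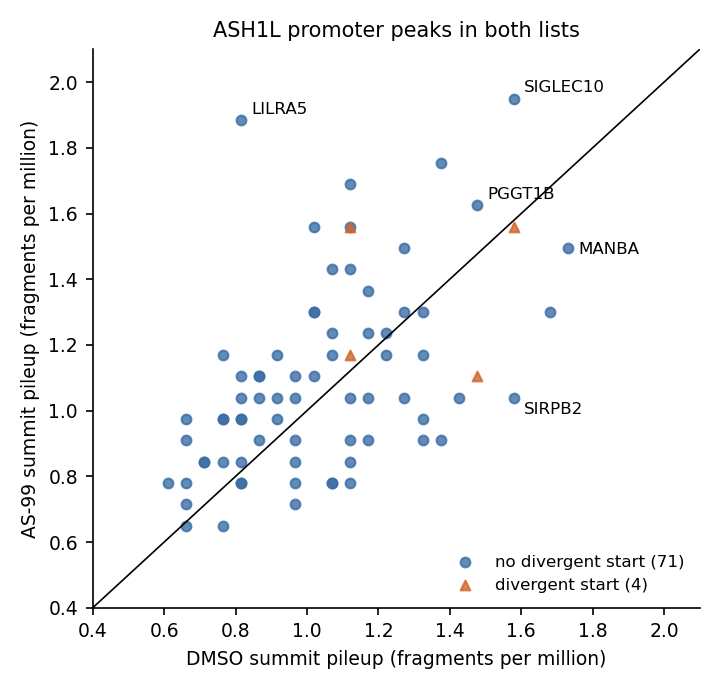
Summit pileup scaled to 1000000 fragments with DMSO (x axis) and AS-99 (y axis) at the 75 promoter peaks matched between the lists, 71 away from a bidirectional start and 4 at one. The diagonal marks equal values, and 46 points lie above it and 29 below.

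H3K36me2 peaks were few near promoter ASH1L peaks. The H3K36me2 lists held 1359 (DMSO) and 634 (AS-99) peaks, of which 72 (5.30%) and 65 (10.3%) were at promoters. With DMSO, 20 of 768 promoter ASH1L peaks (2.60%) had an H3K36me2 peak within 5 kb, against 275 of 2305 other ASH1L peaks (11.9%) and 9.6% of all, a difference of −9.33 points (−11.0 to −7.45). With AS-99, 17 of 275 (6.18%) did, against 124 of 1537 (8.07%) and 7.78% of all, a difference of −1.89 points (−4.60 to 1.83). Without the regions of all 4 lists the AS-99 difference was 0.937 points (−1.59 to 4.51). Among ASH1L peaks with a GC content of at least 55%, the differences were −6.08 points (−8.41 to −3.80) with DMSO and −0.59 points (−4.75 to 4.18) with AS-99. The share at promoter peaks was 3.58 points higher with AS-99 than with DMSO (0.905 to 7.19), while at other ASH1L peaks it was 3.86 points lower (−5.74 to −1.93).

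Compared with genes rather than with other ASH1L peaks, the promoters with ASH1L held more H3K36me2. An H3K36me2 peak lay within 5 kb of the start at 2.78% of DMSO genes with an ASH1L promoter peak and 0.809% of genes without, a difference of 1.97 points (1.08 to 3.24). With AS-99 the shares were 6.03% and 0.607%, a difference of 5.43 points (3.28 to 8.62). Inside the gene from start to end, the shares were 5.24% and 3.13% with DMSO, and 4.76% and 1.68% with AS-99.

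The lists of the 2 treatments paired unequally at promoters. Of the DMSO promoter ASH1L peaks, 15 were overlapped by DMSO H3K36me2 peaks and 21 by AS-99 H3K36me2 peaks, although the AS-99 list is the shorter, and 2 were overlapped by both. Of the AS-99 promoter ASH1L peaks, 16 were overlapped by AS-99 H3K36me2 and 3 by DMSO H3K36me2. Of the 75 retained DMSO promoter peaks, 10 (13.3%, 6.58 to 23.2) were overlapped by AS-99 H3K36me2 and 1 by DMSO H3K36me2. Of the 693 not retained, the numbers were 11 (1.59%) and 14 (2.02%). At the 308 retained peaks away from promoters, the shares were 23.1% for AS-99 H3K36me2 and 27.6% for DMSO H3K36me2.

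**Figure D5:**
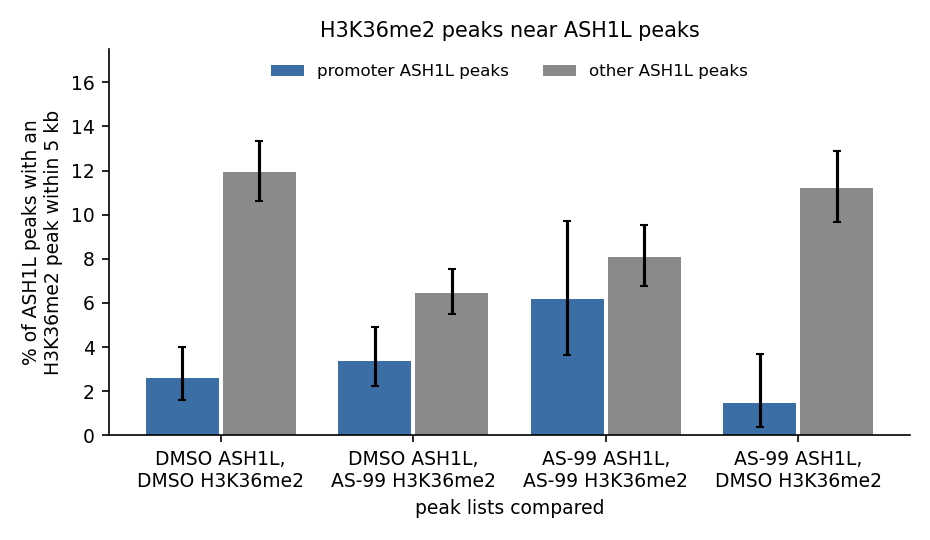
Share of ASH1L peaks (%) with an H3K36me2 peak within 5 kb, for promoter peaks in blue and other ASH1L peaks in grey, for each ASH1L list with each H3K36me2 list. Bars are shares and lines exact 95% intervals, and promoter shares run from 1.45% to 6.18% while the other shares run from 6.46% to 11.9%.

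SIGLEC10 had peaks in all 4 lists, with ASH1L pileups of 31 (DMSO) and 30 (AS-99) and H3K36me2 pileups of 25 and 30. WDR55, a nucleolar protein gene, had 22 for ASH1L and 22 for H3K36me2 with DMSO, and 13 for H3K36me2 with AS-99, where no ASH1L peak was listed. CCL3 (27 and 20), CTBS (22 and 19), a lysosomal chitobiase gene, and ANAPC15 (17 and 19), a subunit gene of the anaphase-promoting complex, had ASH1L and H3K36me2 peaks with DMSO and no overlapping peak of either kind with AS-99. So did PSMD9 (26 and 22), a proteasome assembly chaperone gene, and TMEM53/ARMH1 (24 and 21).

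MANBA, RAD9B/VPS29, APBA3/MRPL54 and MYO1F had ASH1L peaks in both lists and H3K36me2 peaks only in the AS-99 list, with H3K36me2 pileups of 19, 12, 14 and 26. CCRL2 (19) and MTIF2 (15) showed the same pattern. DOK2, an adaptor gene of blood cells, and ABRAXAS2, a scaffold gene of a deubiquitinase complex, had AS-99 ASH1L pileups of 23 (chr8:21771336-21771640) and 17 (chr10:126490492-126490918) with H3K36me2 pileups of 21 and 16, and no overlapping DMSO ASH1L peak.

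Of gene groups, splicing factors had DMSO promoter peaks at 8 of 56 genes (14.3%, 6.38 to 26.2), against 4.66% of all genes. They included SF3B3 (pileup 27), PRPF31 (23), SNRPA (25) and SNRNP70 (19), components of the spliceosome. With AS-99, SNRNP70 (16) and SF3B2 (12) had peaks, 3.57% of the group against 1.57% of all genes. High CpG promoters made up 92.9% of this group and 55.7% of all genes. Of all high CpG genes, 6.64% had a DMSO peak, which lies inside the interval of the splicing factors. Of the 56 genes, 7 are on chromosome 19, where 8.78% of all genes had a DMSO peak. PRPF31, SNRPA, SNRNP70 and SNRPD2, all on that chromosome, were among the splicing factors with a DMSO peak.

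Genes of zinc finger proteins named ZNF had DMSO promoter peaks at 49 of 508 (9.65%, 7.22 to 12.6) and AS-99 peaks at 22 (4.33%, 2.73 to 6.48). Of the 508, 246 are on chromosome 19, where 8.78% of all genes had a DMSO peak. On that chromosome 13.0% of ZNF genes (9.07 to 17.9) and 7.94% of other genes (6.49 to 9.59) had one. On the other chromosomes the shares were 6.49% (3.83 to 10.2) and 4.30% (4.01 to 4.602). ZNF524 (31), ZNF616 (23) and ZNF566 (22) had the strongest DMSO peaks and ZNF460 (27) the strongest AS-99 peak. ZNF genes are close paralogs, and the placing of their fragments by the authors was not checked. The X chromosome had the lowest share with DMSO, at 1.04% of its genes.

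Replication-dependent histone genes had DMSO peaks at 7 of 64 (10.9%, 4.51 to 21.2) and AS-99 peaks at 4 (6.25%, 1.73 to 15.2), with 1 peak shared by H4C1 and H3C1 (pileup 25 with DMSO and 16 with AS-99). Cytosolic ribosomal protein genes had 7 of 83 (8.43%) and 2 of 83, among them RPS19 (26) with DMSO and RPS29 (18 in both lists). Mitochondrial ribosomal protein genes had 5 of 77 and 3 of 77, respiratory complex I genes 5 of 46 and 3 of 46, and aminoacyl-tRNA synthetase genes 4 of 34 and 1 of 34. Translation initiation factors had 4 of 55 and 1 of 55, with EIF4G2 (22) the strongest, and proteasome subunits 3 of 48 and 1 of 48. Mediator subunits had 2 of 30 and 0 of 30. The exact intervals of the DMSO shares of all groups in this paragraph included the 4.66% of all genes. The AS-99 intervals included the 1.57% of all genes except for the histone genes, whose interval lay above it and whose 4 genes with a peak include the pair that shares 1.

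Peaks were few or absent in the olfactory receptor and keratin genes, families with few high CpG promoters. Olfactory receptor genes had peaks at 2 of 399 with DMSO (0.501%, 0.0608 to 1.80) and at 1 with AS-99, OR52N2, which was in both lists (pileups 18 and 15). Keratin genes had none of 55 in either list, which allows a share of up to 6.49%. For keratins, no shortfall against the 4.66% (DMSO) and 1.57% (AS-99) of all genes could be detected. High CpG promoters made up 0.752% and 7.27% of these families.

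Groups that bear on MLL-rearranged leukemia gave small counts. Of 20 target genes of MLL fusion proteins, MYC, a growth-promoting transcription factor gene, had a DMSO peak with a pileup of 25 and a fold enrichment of 3.95, 605 bp inside the gene. No AS-99 peak was listed at any of the 20, which allows up to 16.8%. HOXB9 (15) was the single HOX gene of 39 with a DMSO peak. None of 25 genes of H3K36 methylation, ASH1L itself among them, had a promoter peak in either list, which allows up to 13.7%. Of 16 MLL and COMPASS genes, ASH2L had the AS-99 peak described above, and of 11 genes of the super elongation complex and DOT1L, CCNT1 (24) had a DMSO peak. Polycomb genes had DMSO peaks at 3 of 20, namely PCGF6 (19), JARID2 (15) and EZH1 (14), and PCGF6 (13) with AS-99. MCM6 (14), a replication helicase gene, and CDC25C (18), a mitotic phosphatase gene, were the 2 of 32 cell cycle genes with a DMSO peak. CSF2RA (10) was the 1 of 23 myeloid genes with a DMSO peak, and PAX5 (21) the 1 of 15 lymphoid and erythroid marker genes. The myeloid list is short, and genes of blood cells outside it, such as SIGLEC10, LILRA5 and DOK2, had promoter peaks. With counts this small, no difference from the 4.66% (DMSO) or 1.57% (AS-99) of all genes could be detected in these groups.

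Motif letters were counted on both strands of the 300 bp from 250 bp before the start to 49 bp after it, and a match is a description, not a bound site. The ETS letters CCGGAAG were found at 23.4% of DMSO genes and 20.3% of AS-99 genes, against 11.8% of all genes. Within high CpG genes the shares were 25.8% and 24.9% against 17.8%, and the differences from genes without a peak were 8.66 points (5.55 to 12) and 7.28 points (2.08 to 13.3). The YY1 letters AAGATGGCG were found at 4.38% of DMSO genes (3.16 to 5.90), 1.27% of AS-99 genes (0.347 to 3.22) and 1.87% of all genes. Here DMSO exceeded AS-99 by 3.11 points (0.855 to 4.81). The CCAAT letters were found at 39.3% and 32.1%, against 35.8% of all genes. The GC box letters GGGCGG were more frequent at DMSO genes (63.2%) than at all genes (52.2%), but within high CpG genes they were less frequent at DMSO genes (69.7%) and AS-99 genes (65.1%) than at all such genes (75.5%). For NRF1 (GCGCATGCG), CRE (TGACGTCA), the E-box (CACGTG), AP-1 (TGANTCA) and RUNX (TGTGGTT), the exact intervals of both lists included the share of all genes. The TATAAA letters were found at 7.91% of DMSO genes and 10.5% of AS-99 genes against 10.9% of all, and AGATAA, the GATA letters, at 5.77% and 6.98% against 8.77%. Within high CpG genes both orders turned. TATAAA was then found at 6.19% and 8.73% against 5.21% of all such genes, with differences from genes without a peak of 1.05 points (−0.527 to 3.06) with DMSO and 3.6 points (0.560 to 7.99) with AS-99. AGATAA was found at 4.58% and 5.24% against 4.15%, with differences of 0.462 points (−0.881 to 2.25) and 1.12 points (−1.13 to 4.83).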

How the data were processed

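The authors called peaks separately for each library with MACS 2.1.0.20150731 on paired-end fragments, per the file headers with a q-value threshold of 0.01 and no control library, after mapping to hg19. The deposited pileup is a signal, the coverage of the summit in fragments, not scaled to library size or spike-in. The deposited −log10 p and −log10 q compare it with a Poisson background, and the deposited fold enrichment is their ratio. Positions, lengths and summits are other deposited columns, in bp. Genes came from GENCODE release 44 on GRCh37, and sequence from GRCh37. Gene IDs were not converted.

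Overlap was at least 1 bp. CpG windows of 500 bp were searched from 900 bp before to 400 bp after the start, in steps of 10 bp. Counts, shares and differences were given exact conditional binomial, Clopper-Pearson and Newcombe intervals (scipy 1.17.1, statsmodels 0.14.6). No test over libraries was possible with 1 library a group. The functions were tested on simulated lists. The text names the 10 strongest promoter peaks of each list, the 5 strongest retained, the 5 strongest without a peak of the other list within 1 kb, up to 10 overlapped by H3K36me2, and up to 6 per gene list, by −log10 p, except that 1 such gene is not reported here. The members and lists were chosen with earlier results of these data known. Alternatives changed the threshold, promoter width, overlap, depth, bidirectional distance and CpG definition.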

Additional observations from a re-analysis of the deposited data

How the results depend on the processing

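Of 65 values recomputed under alternatives, 56 stayed inside the 95% interval of the reported value and 9 moved outside it, none with a change of sign of a difference whose interval excluded 0. The alternatives that leave out regions of all 4 lists, keep high CpG genes alone or keep GC-rich peaks alone were chosen after the data were seen.

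Keeping peaks of −log10 p 10 or more, the promoter count ratio was 0.306, the retention difference −6.92 points, the DMSO bidirectional difference 5.07 points and the DMSO H3K36me2 difference −11.3 points. At the AS-99 depth the count ratio was 0.421. Dividing by summed pileup instead of fragments gave a matched log2 ratio of 0.50. High CpG genes alone gave bidirectional differences of 6.05 (DMSO) and −2.87 (AS-99) points, and GC-rich ASH1L peaks alone a DMSO H3K36me2 difference of −6.08 points. The change of divisor shifted every matched pair by the same amount. The cause of the other moves was not tested. The AS-99 bidirectional difference ran from −2.87 to 2.90 points over 7 alternatives and the AS-99 H3K36me2 difference from −2.86 to 0.937 over 8, so neither has a settled sign. The CpG differences stayed between 22.5 and 27.2 points with DMSO and 14.7 and 19.4 with AS-99.

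Most promoter peaks had fewer than 20 fragments at the summit, and how far below the threshold a missing peak lies is not known.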
